A study of Mus musculus with 24 samples.

Results

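The genes followed here, 9 in all, were Lamtor1, Lamtor2, Lamtor3, Lamtor4 and Lamtor5, which encode the subunits of Ragulator, and Rraga, Rragb, Rragc and Rragd, which encode the Rag GTPases. They were taken by symbol, and all 9 of 9 had a row in both deposited tables, among 23845 genes in the RNA table and 20436 genes in the table of ribosome-protected fragments (RPFs). RNA-seq counts the mRNA of a lysate, ribosome profiling counts the mRNA fragments that ribosomes shield from nuclease, and the ratio of RPF to RNA is the translational efficiency (TE). Hippocampal slices came from male WT and Tsc2+/- mice aged 28 to 42 days. WT slices given vehicle (artificial cerebrospinal fluid), WT slices given DHPG, Tsc2+/- slices given vehicle and Tsc2+/- slices given DHPG made up 4 groups, each with 3 libraries of each assay. DHPG, which activates group I metabotropic glutamate receptors, was given at 100 µM for 5 min. Cycloheximide, which holds ribosomes on the mRNA, was used at 100 µg/ml in all groups.

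The Tsc2+/- allele was a germline deletion made by crossing CMV-Cre mice with Tsc2flox mice and breeding on the C57BL/6J background, so every cell type carried it, and WT littermates were the controls. Slices of several mice were pooled in a library, so a library is not one animal. CA3 had been cut off and the study calls the slices CA1 enriched. The summed RNA level of the 4 CA1 markers was 1614 to 1786 counts scaled to library size (CPM) over the 12 libraries and that of the 5 CA3 markers was 65.3 to 90.6 CPM. In bulk tissue of this kind, fewer cells of a type and less RNA per cell cannot be told apart. RNA libraries held 14801700 to 24067800 counts and RPF libraries 5296010 to 13613700 (both n = 12), and the 9 genes together took 0.0408% to 0.0461% of the RNA counts and 0.0711% to 0.0789% of the RPF counts. Tsc2, measured as a check of the genotype labels, was lower in every Tsc2+/- library than in every WT library of its assay, with a log2 fold change in vehicle of -0.52 for RNA (adjusted p 2.03e-07, edgeR) and -0.74 for RPF (adjusted p 4.03e-07, edgeR).

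Ragulator sits on the cytosolic face of the lysosome. Lamtor1 is anchored in the membrane by lipid groups and wraps around the other subunits, which pair as Lamtor2 with Lamtor3 and Lamtor4 with Lamtor5. Ragulator holds the Rag GTPases, which work as a pair of RagA or RagB with RagC or RagD, and when amino acids are plentiful this pair brings mTORC1 to the lysosome, where Rheb can switch it on. The TSC complex, of which Tsc2 is the catalytic part, keeps Rheb off, so Rags and TSC are separate inputs to the same kinase.

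The sequence around each start codon is shown first, since it lies next to the reading frame whose footprints were counted. The bases are from RefSeq on GRCm38.p6, 9 before the start codon and 3 after it, read 5′ to 3′ on the strand of the gene, with the start codon in capitals.
Lamtor1: gaccccgccATGggg
Lamtor2: gacgcaggcATGctg
Lamtor3: gggttcatcATGgcg
Lamtor4: acggctgcgATGact
Lamtor5: gtagtagctATGcct
Rraga: cggcaggtgATGccc
Rragb: tgttgcacgATGgaa
Rragc: tccagcaccATGtcc
Rragd: gtgggcgtgATGagc

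The motif ANNATGG, with A in the place 3 bases before the start codon and G just after it, was held by Lamtor3 and Rragb, 2 of 9, and by 22.9% of 12066 genes. GNNATGG was held by Lamtor1 alone of the 9 and by 22.6% of genes. The other 6 had A or G in that place and no G after it, a form that 41.0% of genes had. Only the strand of the gene was read, and the 3 forms exclude one another.

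The Lamtor mRNAs were among the shortest measured. Their coding sequences ran from 300 nt (Lamtor4) to 486 nt (Lamtor1), against a median of 1455 nt over 12195 genes, whereas those of the Rag mRNAs ran from 942 nt (Rraga, a gene of 1 exon) to 1365 nt (Rragd). Rragd had the longest 3′UTR of the 9 at 3380 nt, 68.7% of its transcript, and Lamtor2 the shortest at 129 nt. Rraga (86575673 to 86577285), Rragc (123917433 to 123936997) and Rragd (32982998 to 33022180) lie on chromosome 4, Rragb on chromosome X (153137644 to 153190192), Lamtor2 (88549819 to 88552951), Lamtor3 (137918555 to 137928762) and Lamtor5 (107278858 to 107284082) on chromosome 3, Lamtor4 on chromosome 5 (138255482 to 138259395) and Lamtor1 on chromosome 7 (101905837 to 101911903), all on GRCm38.p6. Lamtor1 overlaps Tomt, and Rragc overlaps the noncoding D130007C19Rik, in each case on the opposite strand. Whether reads were counted by strand is not given in the sources used here, so reads from these partners cannot be told apart from those of Lamtor1 and Rragc.

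The coding sequences of 3 members are shared with other places in the genome. Windows of 30 bases, about the length of a footprint, were read along the counted coding sequence and looked up on both strands of GRCm38.p6. A second perfect match was found for 86.0% of the windows of Lamtor3, 77.8% of those of Lamtor1 and 39.0% of those of Lamtor5, against 0% to 2.62% for the other 6 genes. For 75-base windows along the transcript, the read length of the RNA libraries, the shares were 35.5% (Lamtor3), 14.5% (Lamtor1), 16.9% (Lamtor5) and 0% for the others. The copies that held most matches are annotated as pseudogenes: Gm5900 on chromosome 7 (104949176 to 104950414) for Lamtor3, Gm5510 on chromosome 19 (6152750 to 6153712) and Gm13077 on chromosome 4 (152156068 to 152157460) for Lamtor1, and Gm15190 on chromosome X (159584420 to 159585112), inside Bclaf3, for Lamtor5.

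One shared window for each of the 3 main copies shows what a footprint of this length could not tell apart. Each is given on the strand of the Lamtor gene, with its place in the copy.
Lamtor1, coding bases 213 to 242, also chr19:6152927-6152956 in Gm5510: agactcccagggcatggaacagcatgagta
Lamtor3, coding bases 184 to 213, also chr7:104950077-104950106 in Gm5900: aaactcggactttcaaaaaacaaaagcatc
Lamtor5, coding bases 235 to 264, also chrX:159584957-159584986 in Gm15190: gattcacaaggacttaatctgggctgccgt

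**Figure D1:**
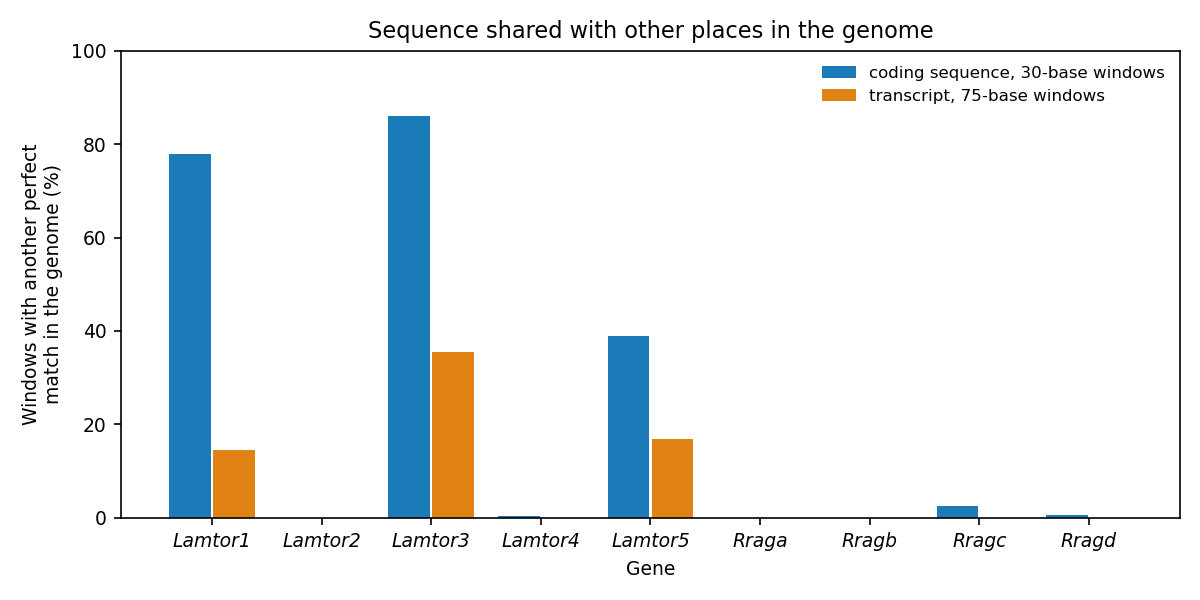
Share of windows with a second perfect match elsewhere in the genome, in percent, for each of the 9 genes; blue bars are 30-base windows of the counted coding sequence and orange bars 75-base windows of the transcript. Lamtor3, Lamtor1 and Lamtor5 stand apart from the other 6 genes, none of which passes 2.62%.

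The authors kept only reads that mapped to one place in the genome, so footprints from such windows could have been discarded. Whether they were was not tested. Levels in WT vehicle are therefore given over all positions and also over the positions without a second match. The latter divide all counts of a gene by the number of windows that match once. They hold only if no read from a shared window was counted, and are too high otherwise. That number is below the length even where no window is shared, so these levels stand slightly higher for every gene.

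In WT vehicle slices the 9 mRNAs were all expressed above the median gene in RNA, and 8 of 9 were in RPF. RNA per length over all positions, in CPM per kilobase (RPKM), was highest for Rraga at 56.3 RPKM ± 4.01 (SD, n = 3) and Lamtor1 at 49.7 ± 5.10, against a median of 8.42 over 12195 genes. It was lowest for Lamtor4 at 15.4 RPKM ± 0.740 and Rragd at 16.0 ± 1.06. Over the 12 lysates Rraga lay above Lamtor1 in 11, and the ranges of neighbours in this order overlapped except for Lamtor1 (45.6 to 55.6 RPKM) against Lamtor2 (27.1 to 35.0). Over positions without a second match this order turned, with Lamtor1 at 62.0 RPKM ± 6.37 (SD, n = 3) above Rraga at 59.0 ± 4.20, and Lamtor1 had the higher mean in the other 3 groups too (62.4 against 55.5 in WT DHPG, 62.6 against 57.9 in Tsc2+/- vehicle and 61.0 against 56.5 in Tsc2+/- DHPG). Lamtor3 was at 29.7 RPKM ± 2.65 and Lamtor5 at 29.5 ± 1.48 over these positions.

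Footprints spread the 9 mRNAs much further apart. RPF level per length over all positions was 360 RPKM ± 11.3 (SD, n = 3) for Rraga, at the 96.1th percentile of 12195 genes, and 10.8 ± 0.796 for Rragd, at the 38.9th, where the median gene had 17.3 RPKM. Rragb (156 RPKM ± 3.71) and Lamtor2 (150 ± 2.53) followed Rraga, and the ranges of these 2 overlapped over 12 libraries. Next came Lamtor5 at 116 RPKM ± 22.2, Lamtor3 at 112 ± 19.1, Lamtor4 at 83.2 ± 2.12, Rragc at 53.8 ± 8.92 and Lamtor1 at 40.7 ± 9.16. Over the 12 libraries, 4 steps of this order were free of overlap: Rraga above Rragb, Lamtor2 above Lamtor5, Lamtor4 above Rragc, and Lamtor1 above Rragd. With all counts divided by the positions without a second match, Lamtor3 stood first in WT vehicle at 885 RPKM ± 150.3 (SD, n = 3). Rraga came next at 373 ± 11.7. Lamtor5 at 207 RPKM ± 39.4 and Lamtor1 at 197 ± 44.4 then had higher means than Lamtor2 at 165 ± 2.78 and Rragb at 161 ± 3.81. The RPF places of Lamtor1, Lamtor3 and Lamtor5 among the 9 thus depended on which positions were taken as the length.

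**Figure D2:**
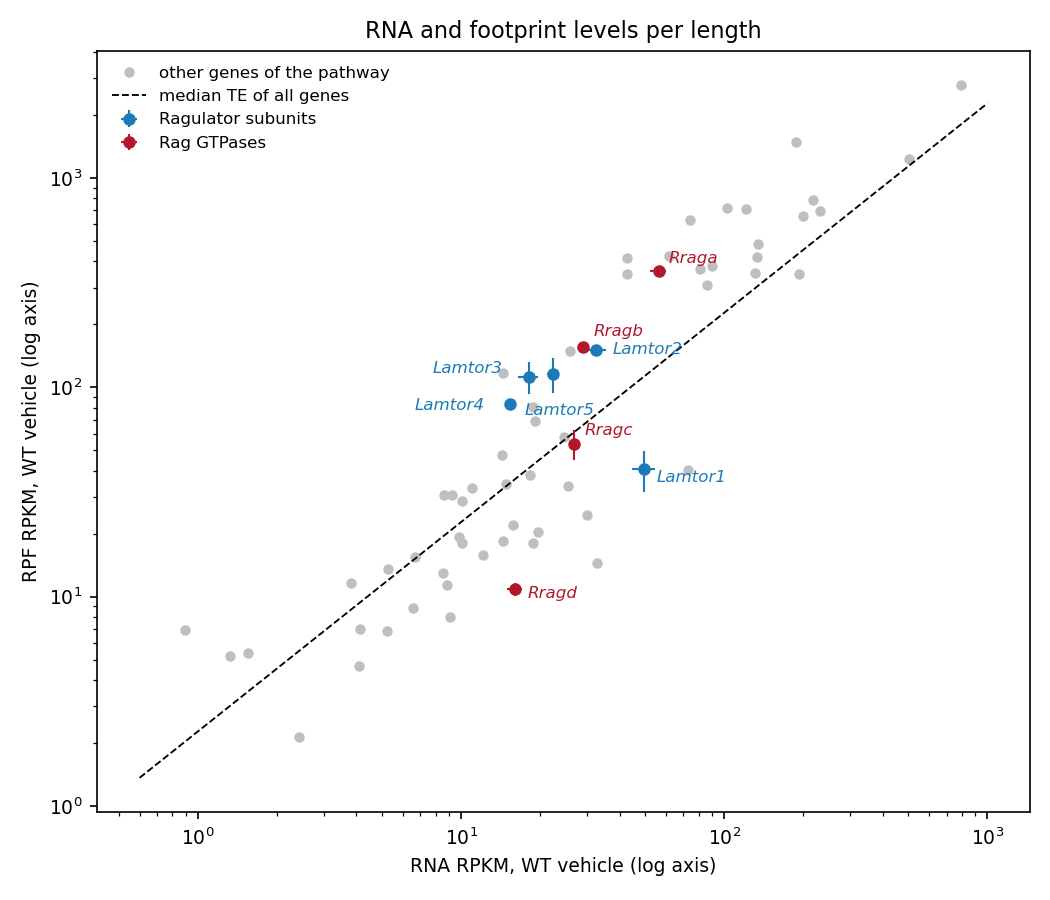
RNA RPKM against RPF RPKM in WT vehicle slices, both on log axes; coloured points are the 9 genes with the SD of 3 libraries, grey points 56 other genes of the pathway, and the dashed line the median TE of all genes. Rraga, Rragb and 4 of the 5 Lamtor mRNAs lie above the line, whereas Lamtor1 and Rragd lie well below it.

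TE in WT vehicle, as RPF RPKM per RNA RPKM, fell into 3 levels. The upper level held Rraga at 6.43 ± 0.631 (SD, n = 3), Lamtor3 at 6.26 ± 1.21, Lamtor4 at 5.42 ± 0.368, Rragb at 5.38 ± 0.169, Lamtor5 at 5.24 ± 1.25 and Lamtor2 at 4.66 ± 0.402, at the 83.3th to 91.7th percentile of 12195 genes. Rragc, at 2.003 ± 0.325, was near the median gene at 2.27. Lamtor1, at 0.835 ± 0.253, and Rragd, at 0.676 ± 0.0181, were at the 10.96th and 7.22th percentile. Over the 12 lysates the ranges of neighbours within the upper level overlapped, as did those of Lamtor1 (0.562 to 1.07) and Rragd (0.548 to 0.878). Lamtor2 (4.32 to 5.89) lay above Rragc (1.69 to 2.44) and Rragc above Lamtor1 in 12 of 12 lysates, with no overlap.

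The place of Lamtor1 in this order depended on which positions were taken as the length. When counts were divided only by the positions without a second perfect match, TE in WT vehicle was 3.24 ± 0.981 for Lamtor1, 29.96 ± 5.78 for Lamtor3 and 7.07 ± 1.69 for Lamtor5. Each was above the median gene, but that median was taken over all positions and is not a like measure. Counts per gene do not show which value is nearer the truth. For Rragd, with 0.705% of its windows shared, the same step gave 0.686 ± 0.0184, so its TE hardly changed with this divisor. Lamtor2 and Rragd have a second RefSeq transcript each. With the shortest transcript TE was 5.76 for Lamtor2. For Rragd the lengths used were the same in both settings, so its TE of 0.676 could not change.

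**Figure D3:**
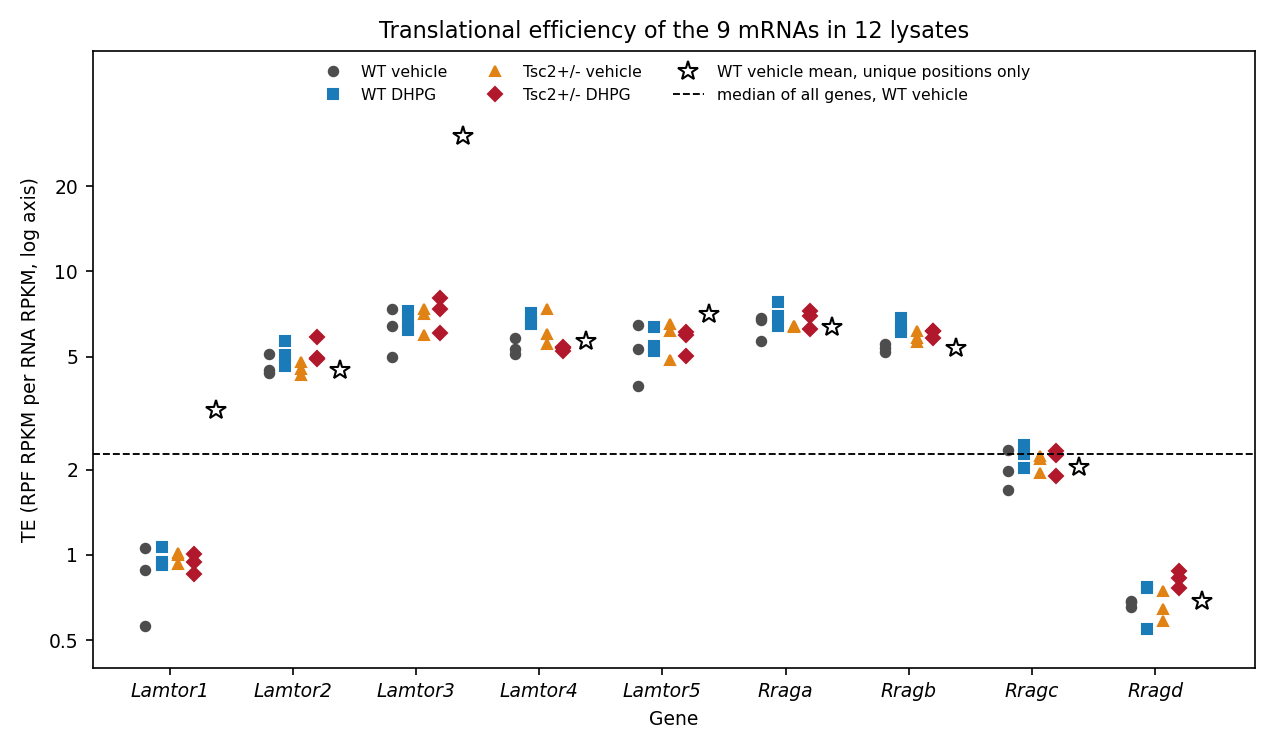
TE of each gene (RPF RPKM per RNA RPKM, log axis) in the 12 lysates, coloured by group. Stars give the WT vehicle mean with all counts divided by the positions without a second perfect match. The dashed line is the median of all genes over all positions. The stars stand apart from the points for Lamtor1 (3.24 against 0.835), Lamtor3 (29.96 against 6.26) and, less, Lamtor5 (7.07 against 5.24).

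The pairs of Rag GTPases that can replace each other differed in level in both assays. RagA and RagB are close paralogs, and Rraga was above Rragb in WT vehicle by 1.94 times ± 0.0994 (SD, n = 3) in RNA RPKM and by 2.31 times ± 0.120 in RPF RPKM. RagC and RagD are close paralogs too, and Rragc was above Rragd by 1.68 times ± 0.119 in RNA RPKM and by 5.02 times ± 1.16 in RPF RPKM. The gap between Rragc and Rragd was larger in footprints than in RNA in every group, from 3.66 to 6.89 times in RPF over single lysates and from 1.51 to 1.85 times in RNA. A RagA or RagB pairs with a RagC or RagD, and the sum of Rraga and Rragb over the sum of Rragc and Rragd was 1.99 ± 0.145 in RNA RPKM and 8.08 ± 1.11 in RPF RPKM in WT vehicle. In the other 3 groups this ratio was 1.85 to 1.98 in RNA and 7.62 to 7.85 in RPF, so the footprints of the RagA and RagB mRNAs exceeded those of their partners in all 4 groups.

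Within Ragulator, whose subunits stand at one copy each in the complex, the highest and lowest RNA RPKM differed by 3.24 times ± 0.473 (SD, n = 3) in WT vehicle. Lamtor1 took 35.9% ± 1.91 of the summed Ragulator RNA RPKM but 8.16% ± 2.27 of the summed RPF RPKM. Lamtor2 took 23.5% ± 1.88 of the RNA and 29.9% ± 1.29 of the RPF, and Lamtor5 16.3% ± 1.08 and 23.1% ± 3.46. These shares rest on all positions, and the values of Lamtor1, Lamtor3 and Lamtor5 carry the limit given above.

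The next question was whether loss of one Tsc2 copy or 5 min of DHPG changed any of the 9 mRNAs, in RNA, RPF or TE. All 9 passed the filter on low counts in both assays, with 170 to 2100 RNA counts and 70 to 4388 RPF counts per library. In the edgeR quasi-likelihood test at an adjusted p under 0.1, 0 of 9 were called in each of 21 comparisons. In RNA the share of all 14516 genes called was 0.0896% between genotypes in vehicle, 0.0482% between genotypes in DHPG, 0% for DHPG in WT, 0% for DHPG in Tsc2+/-, 0% for the interaction, 0.227% for genotype averaged over treatments and 0.0207% for DHPG averaged over genotypes. In RPF the shares of 12877 genes were 0.0233%, 0.0155%, 0.0311%, 0%, 0%, 0.0621% and 0.0311% in the same order. In TE the shares of 12785 genes were 0%, 0%, 0.0469%, 0%, 0%, 0% and 0.0469%. Calls were thus rare for any gene, and 0 of 9 was close to this background.

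At an unadjusted p under 0.05, the edgeR test found 1 of 9 in 6 comparisons and 0 of 9 in the other 15. Rragb was that gene for RNA in DHPG between genotypes (4.64% of all genes), for RNA with DHPG in WT (6.45%), for the RNA interaction (3.47%), for TE with DHPG in WT (9.07%) and for TE with DHPG averaged over genotypes (8.52%), and Rragd for TE with DHPG in Tsc2+/- (3.69%). In the 15 comparisons with none, the share of all genes below this p was 4.90% between genotypes in vehicle, 4.32% with DHPG in Tsc2+/-, 6.12% for genotype averaged and 7.49% for DHPG averaged in RNA. In RPF it was 6.55% and 4.13% between genotypes in vehicle and in DHPG, 6.71% and 4.03% with DHPG in WT and in Tsc2+/-, 3.81% for the interaction, 6.63% for genotype averaged and 6.82% for DHPG averaged. In TE it was 5.73% and 3.01% between genotypes in vehicle and in DHPG, 4.08% for the interaction and 4.54% for genotype averaged. DESeq2 called 0 of 9 in all 21 comparisons, and ComBat followed by DESeq2 called 0 of 9 in the 14 comparisons of RNA and RPF. DESeq2 gave no adjusted p, by its own cutoff on low counts, to all 9 genes in RNA for DHPG averaged over genotypes and to 2 to 4 genes in 5 other comparisons.

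Sets of 3 libraries that did not overlap were also counted over all genes, since this is read for single members later on. In RNA the groups parted upward for 4.01% and downward for 4.19% of genes between genotypes in vehicle, for 4.90% and 4.54% between genotypes in DHPG, for 5.43% and 4.92% with DHPG in WT and for 4.22% and 4.46% with DHPG in Tsc2+/-. In RPF the shares, in the same order, were 4.21% and 4.08%, 4.95% and 5.10%, 5.00% and 3.96%, and 4.95% and 4.47%. In TE they were 3.86% and 4.06%, 4.44% and 4.92%, 5.51% and 4.98%, and 5.22% and 4.78%. Of the 9 members, Rragb parted in RNA upward between genotypes in DHPG and downward with DHPG in WT. In RPF Lamtor3 parted upward between genotypes in DHPG, and Rragb and Rragd with DHPG in Tsc2+/-. In TE the members that parted upward were Rragb between genotypes in vehicle, Rragb and Lamtor4 with DHPG in WT, and Lamtor2 and Rragd with DHPG in Tsc2+/-, and Lamtor4 parted downward between genotypes in DHPG and with DHPG in Tsc2+/-.

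**Figure D4:**
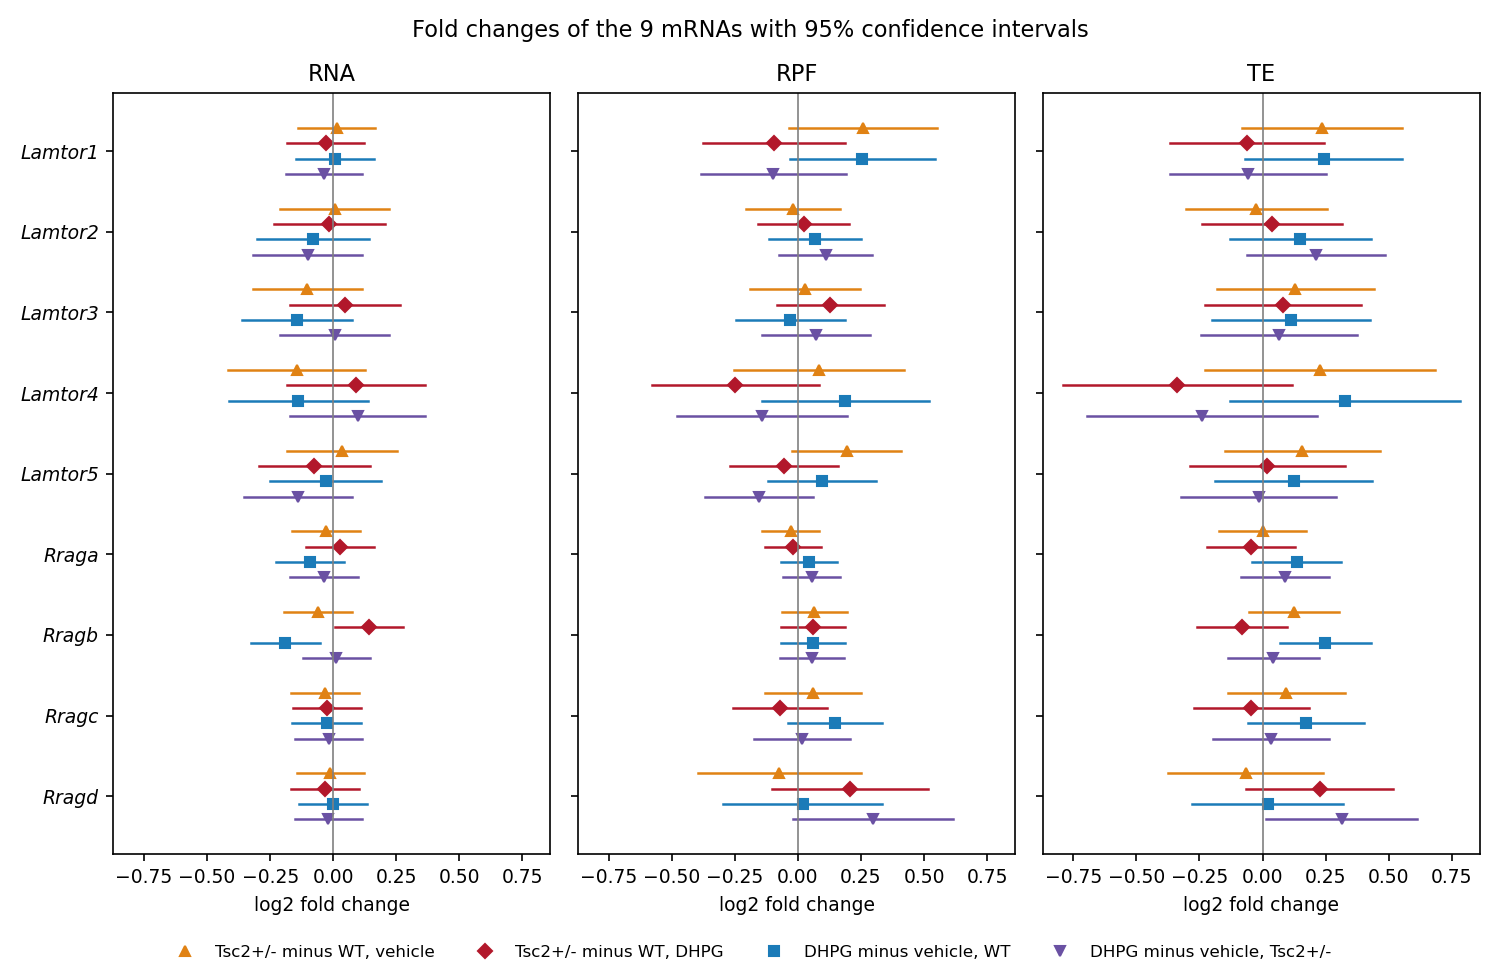
Log2 fold changes of the 9 genes in RNA, RPF and TE for the 4 pairwise comparisons, from edgeR; bars are 95% confidence intervals. RNA changes lie within -0.19 to 0.14, intervals are widest for Lamtor4 in TE, and intervals that leave out 0 are seen only for Rragb and Rragd.

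Between genotypes in vehicle, the fold changes of the 9 mRNAs were small and of both signs. RNA changes ran from -0.15 (Lamtor4) to 0.03 (Lamtor5) on the log2 scale, with a median of -0.028 against -0.0021 over all genes, and the 95% intervals of the 9 genes together reached from -0.42 to 0.25, a fold of 0.749 to 1.19. RPF changes ran from -0.07 (Rragd) to 0.26 (Lamtor1), with a median of 0.060 and intervals from -0.40 to 0.55. TE changes ran from -0.07 (Rragd) to 0.24 (Lamtor1), with a median of 0.12 against -0.0037 over all genes. For 7 of 9 genes the TE change was above 0, as it was for 49.2% of all genes tested. With the trend of each library with length and GC content removed it was 6 of 9, with a median of 0.039, against 46.6% of all genes.

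Lamtor1, the membrane anchor, had the largest RPF change between genotypes in vehicle. Its RPF level was 21.1, 17.6 and 13.3 CPM in WT vehicle and 20.2, 19.4 and 23.3 CPM in Tsc2+/- vehicle. The groups overlapped, and WT replicate 3 was the lowest of these 6 libraries. The log2 fold change was 0.26 (SE 0.144), with an adjusted p of 0.780 from edgeR and 2 of 3 same-numbered pairs in that direction. With single libraries left out it ran from 0.089 (without Tsc2+/- vehicle replicate 3) to 0.40 (without WT vehicle replicate 1). With DHPG in WT its RPF level was 21.8, 22.2 and 18.5 CPM, overlapping vehicle, with a difference of 0.26 (SE 0.141, adjusted p 0.748, edgeR) that ran from 0.14 without WT vehicle replicate 3 to 0.39 without WT vehicle replicate 1, and the interaction was -0.35 (SE 0.200, adjusted p 0.998, edgeR). Its RNA level was 58.9 CPM ± 6.05 (SD, n = 3) in WT vehicle and 59.6 ± 5.07 in Tsc2+/- vehicle.

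Lamtor5 was next, with RPF levels of 35.2, 51.9 and 44.9 CPM in WT vehicle and 46.5, 52.2 and 52.1 CPM in Tsc2+/- vehicle. The groups overlapped, and the log2 fold change was 0.19 (SE 0.106, adjusted p 0.777, edgeR), with 0.063 without WT vehicle replicate 1 and 0.35 without WT vehicle replicate 2. Rraga, at 318 CPM ± 10.01 (SD, n = 3) in WT vehicle and 312 ± 15.6 in Tsc2+/- vehicle, was the most precisely measured of the 9 in RPF, with a log2 fold change of -0.03 and a 95% interval from -0.14 to 0.08.

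In DHPG the genotype changes were again small, and the largest in RPF and in TE were those of Lamtor4 (-0.25 and -0.34) and Rragd (0.21 and 0.23). RNA changes had a median of -0.015 and ran from -0.08 (Lamtor5) to 0.14 (Rragb), RPF changes had a median of -0.018 and TE changes of -0.044. Rragb RNA was 55.6, 60.7 and 57.9 CPM in WT DHPG and 62.5, 65.9 and 63.8 CPM in Tsc2+/- DHPG, so every Tsc2+/- library was above every WT library, as for 4.90% of all genes. The log2 fold change of Rragb was 0.14 (SE 0.0665, unadjusted p 0.0410, adjusted p 0.997, edgeR). Lamtor3 RPF was 32.2, 36.6 and 34.2 CPM in WT DHPG and 37.7, 37.0 and 37.8 CPM in Tsc2+/- DHPG, again without overlap (4.95% of all genes), and the log2 difference was 0.13 (SE 0.104, adjusted p 0.9995, edgeR), and 0.066 without Tsc2+/- DHPG replicate 1.

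Marker values of other cell sources belong beside these genotype values. In RNA, the ranges of the summed dentate gyrus markers overlapped in vehicle, and those of the blood markers overlapped in DHPG. The summed RNA level of the 5 dentate gyrus markers was 39.4 to 45.4 CPM in WT DHPG and 22.1 to 28.5 CPM in Tsc2+/- DHPG, and 30.9 to 53.9 and 30.1 to 40.3 CPM in vehicle. Prox1, a factor of dentate granule cells, was called lower in Tsc2+/- RNA averaged over treatments (log2 fold change -0.41, adjusted p 0.0161, edgeR). The median log2 fold change of the 5 was -0.38 in vehicle and -0.88 in DHPG in RNA, and -0.22 and -1.09 in RPF, with 4 of 5 at an unadjusted p under 0.05 and 0 called by edgeR for RPF in DHPG. The summed RNA level of the 4 blood markers with a row, of 5 listed, was 16.3 to 35.2 CPM in WT DHPG and 5.04 to 17.7 CPM in Tsc2+/- DHPG, and 20.9 to 26.8 and 2.59 to 16.5 CPM in vehicle. Their median log2 fold change was -1.20 in vehicle and -1.35 in DHPG, and Hbb-bt, a beta globin gene, was called lower in Tsc2+/- in DHPG (-4.46, adjusted p 0.0453) and averaged over treatments (-3.16, adjusted p 0.00355) by edgeR. No blood marker was tested in RPF. The 5 oligodendrocyte markers had a median RNA log2 fold change of 0.13 in vehicle and -0.059 in DHPG. Of these, 3 of 5 and 1 of 5 had an unadjusted p under 0.05 by edgeR, with 0 called. In RPF their medians were 0.11 in vehicle and -0.013 in DHPG, with 1 of 5 at that p in each. Of the other cell type lists, medians in RNA ran from -0.10 (endothelial) to 0.13 (excitatory neuron) in vehicle. In DHPG they ran from -0.14 (endothelial) to 0.075 (CA3). In RPF they ran from -0.12 (endothelial) to 0.14 (CA3) in vehicle and from -0.11 (choroid plexus) to 0.12 (CA3) in DHPG. In these lists 0 markers were called by edgeR. The part of any of these cell types in the genotype values of the 9 mRNAs was not tested.

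With DHPG in WT slices, RNA of the 9 mRNAs lay mostly below vehicle and footprints mostly above it, with 0 of 9 called. RNA was lower for 7 of 9 genes, with a median log2 fold change of -0.080 against -0.0016 over all genes. RPF was higher for 8 of 9, with a median of 0.068 against -0.0019 over all genes. In both assays 49.5% of all genes were above 0. TE was higher for 9 of 9, with values from 0.02 (Rragd) to 0.33 (Lamtor4) and a median of 0.15, where 50.2% of all genes were above 0 and the median was 0.0011. With each library's trend with length and GC content removed, TE was higher for 6 of 9 with a median of 0.032, RNA was lower for 5 of 9 with a median of -0.039, and RPF was higher for 6 of 9 with a median of 0.012. After that step 49.0%, 50.7% and 49.4% of all genes were above 0 in TE, RNA and RPF. This comparison and that of genotype in vehicle share the WT vehicle libraries.

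Rragb was the gene nearest to a call. Its RNA was 66.5, 64.7 and 67.7 CPM in WT vehicle and 55.6, 60.7 and 57.9 CPM in WT DHPG, so each DHPG library was below each vehicle library, as for 4.92% of all genes. The log2 fold change was -0.19 (SE 0.0669, unadjusted p 0.00725, adjusted p 0.712, edgeR). Its RPF level was 162, 168 and 170 CPM in vehicle and 159, 177 and 186 CPM in DHPG, and the log2 difference was 0.06 (SE 0.0626, adjusted p 0.888, edgeR). TE of Rragb was 5.21, 5.55 and 5.37 in WT vehicle and 6.11, 6.26 and 6.86 in WT DHPG, with no overlap, as for 5.51% of all genes. The TE change was 0.25 (SE 0.0898, unadjusted p 0.00802, adjusted p 0.353, edgeR), and without WT vehicle replicate 2 it was 0.30 with an adjusted p of 0.135. In Tsc2+/- slices the TE change of Rragb with DHPG was 0.04 (SE 0.0889), and the interaction, -0.21 (SE 0.126, adjusted p 0.999, edgeR), did not pass the threshold.

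Lamtor4, the smallest protein of the complex, had the largest TE change with DHPG. TE of Lamtor4 was 5.10, 5.34 and 5.82 in WT vehicle and 6.65, 7.14 and 6.52 in WT DHPG. In Tsc2+/- slices it was 6.0004, 5.53 and 7.40 in vehicle and 5.23, 5.39 and 5.41 in DHPG. The libraries of the 2 treatments did not overlap in either genotype, upward in WT (5.51% of all genes) and downward in Tsc2+/- (4.78%). The changes were 0.33 (SE 0.224, adjusted p 0.689) and -0.24 (SE 0.224, adjusted p 0.999) in edgeR, and the interaction was -0.57 (SE 0.317, unadjusted p 0.0828, adjusted p 0.999). The change in Tsc2+/- was -0.13 without Tsc2+/- vehicle replicate 3. Lamtor4 had only 92 to 281 RPF counts per library, and its RPF level varied over the 12 libraries with a coefficient of variation of 17.1%, the highest of the 9.

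Rragd, the least translated of the 9, showed its largest TE change with DHPG in Tsc2+/- slices. TE of Rragd was 0.643, 0.584 and 0.748 in Tsc2+/- vehicle and 0.765, 0.828 and 0.878 in Tsc2+/- DHPG, without overlap (5.22% of all genes). The change was 0.31 (SE 0.149, unadjusted p 0.0407, adjusted p 0.999, edgeR). Its RNA was 78.0 CPM ± 1.86 (SD, n = 3) in Tsc2+/- vehicle and 77.0 ± 5.30 in Tsc2+/- DHPG. In WT the TE change of Rragd was 0.02 (SE 0.149), and the interaction was 0.29 (SE 0.210, adjusted p 0.999, edgeR). The RPF counts behind these values were 70 to 212 per library.

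**Figure D5:**
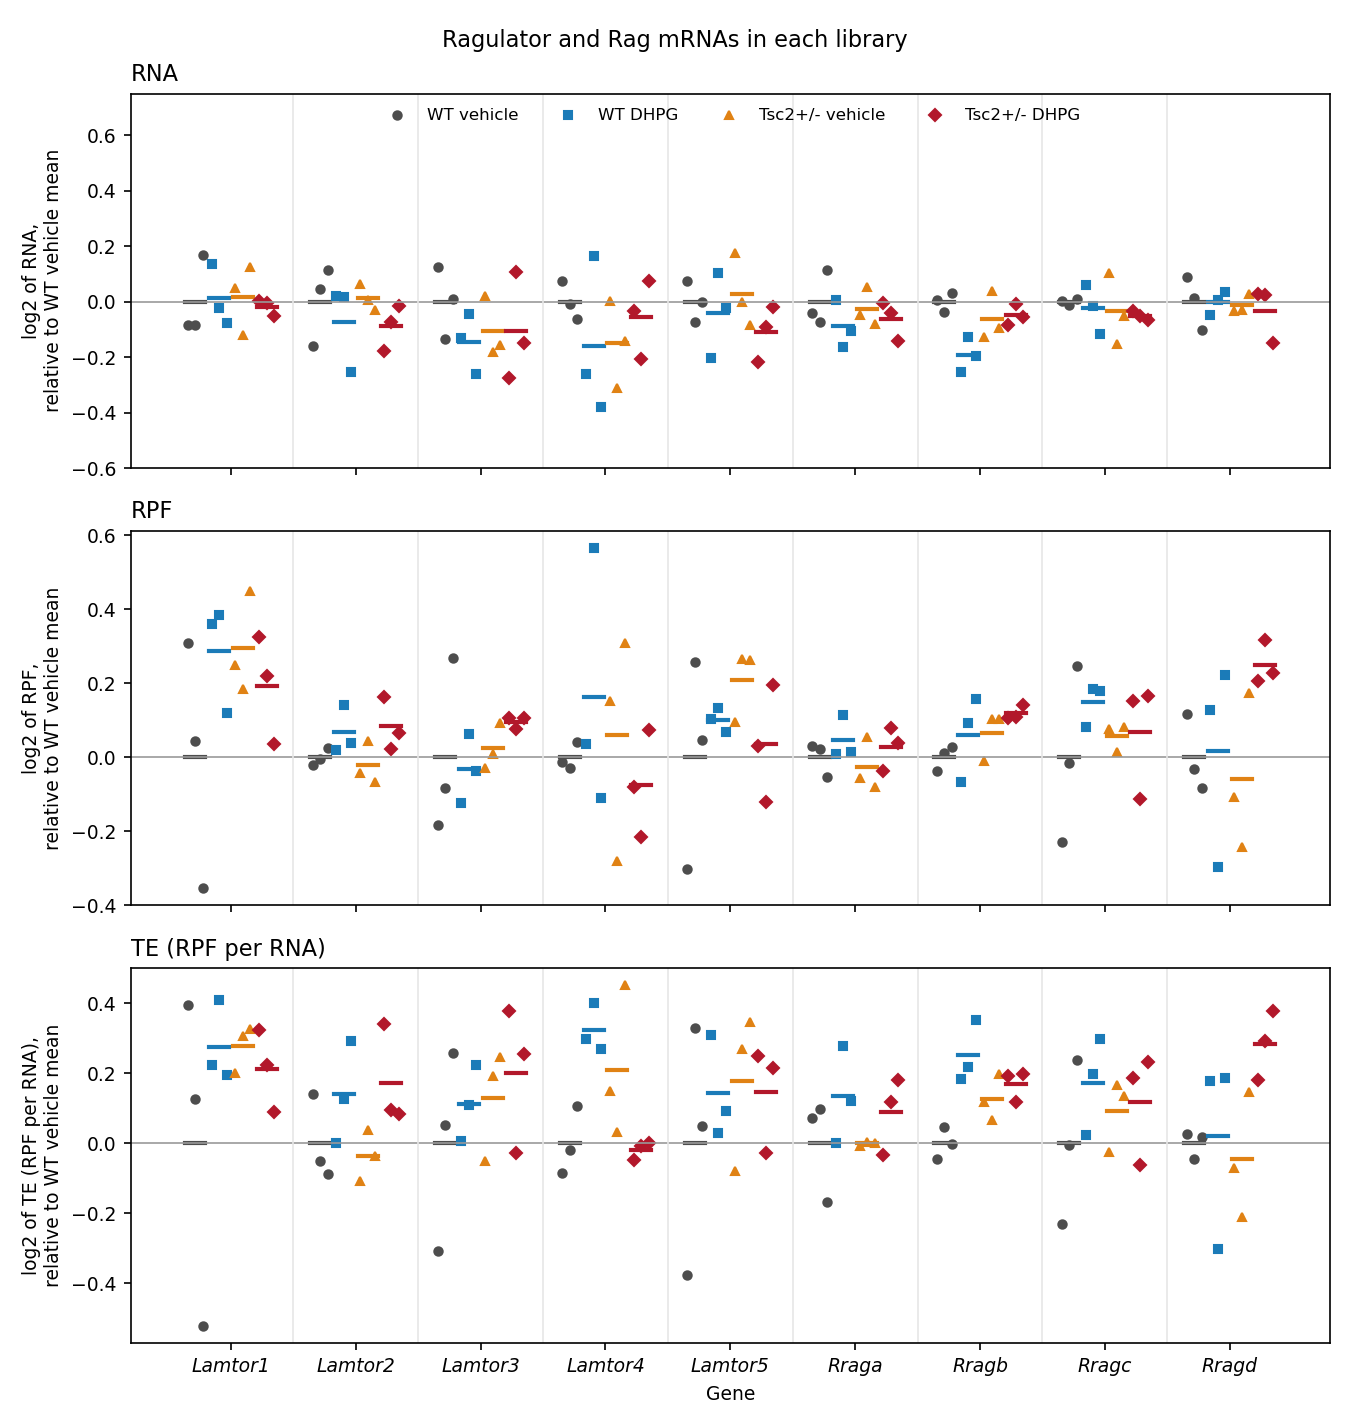
RNA, RPF and TE of the 9 genes in each library, as log2 of the CPM (TE: RPF CPM per RNA CPM) relative to the WT vehicle mean; points are libraries, coloured by group, and bars are group means. The DHPG sets that part from vehicle are RNA and TE of Rragb in WT, RPF of Rragb and Rragd in Tsc2+/-, TE of Lamtor2 and Rragd in Tsc2+/-, and TE of Lamtor4 in both genotypes.

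With DHPG against vehicle in Tsc2+/- slices, RNA changes of the 9 mRNAs ran from -0.14 (Lamtor5) to 0.10 (Lamtor4) and RPF changes from -0.15 (Lamtor5) to 0.30 (Rragd). TE was above 0 for 6 of 9 with a median of 0.043, and for 50.4% of all genes. Besides Rragd and Lamtor4, Lamtor2 had TE without overlap, at 4.32, 4.78 and 4.53 in vehicle and 5.89, 4.97 and 4.92 in DHPG (0.21, SE 0.137, adjusted p 0.999, edgeR), and without Tsc2+/- DHPG replicate 1 that change was 0.11. The RPF change of Rragd ran from 0.19 to 0.40 with single libraries left out. Averaged over genotypes, TE with DHPG was above 0 for 9 of 9 with a median of 0.10, and RNA was below 0 for 9 of 9 with a median of -0.064. Of all genes 49.8% were above 0 in TE and 49.5% in RNA. With the length and GC trend removed the members' counts were 7 of 9 and 8 of 9, where 51.3% of all genes were above 0 in TE and 48.3% in RNA.

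Marker values of 2 other cell types belong beside the comparison of DHPG with vehicle in Tsc2+/- slices. The median log2 fold change of the 5 dentate gyrus markers was -0.70 in RNA and -0.82 in RPF, with 2 and 3 of 5 at an unadjusted p under 0.05 and 0 called by edgeR, and 0 of 5 for TE at that p. Their summed RNA level was 30.1 to 40.3 CPM in vehicle and 22.1 to 28.5 CPM in DHPG, and their summed RPF level 33.9 to 41.7 CPM and 21.2 to 30.3 CPM, with no overlap in either assay. The 5 oligodendrocyte markers had a median of -0.16 in RPF, with 4 of 5 at an unadjusted p under 0.05 and 0 called by edgeR, and a summed RPF level of 4477 to 5652 CPM in vehicle and 4268 to 5103 CPM in DHPG. The other lists had medians from -0.32 (blood) to 0.013 (CA1) in RNA. In RPF they ran from -0.27 (choroid plexus, 1 gene tested) to 0.00056 (CA1), with 0 called in either assay. The part of any of these cell types in the members' values was not tested.

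The steadiest values were those of Rragd and Rragc in RNA and of Rraga in RPF. Over all 12 libraries the coefficient of variation of the CPM was 4.47% for Rragd and 4.82% for Rragc in RNA, and 4.06% for Rraga in RPF. For Rraga the 95% interval of the log2 fold change lay between -0.23 and 0.16 in RNA and between -0.14 and 0.17 in RPF over the 4 pairwise comparisons. Lamtor4 varied most in both assays, with 11.6% in RNA and 17.1% in RPF.

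The 9 mRNAs did not vary as a block. Over the 12 RNA libraries, with replicate-number means removed, Pearson's r between 2 members had a median of 0.206 over 36 pairs and ran from -0.71 (Lamtor2 with Rragd) to 0.74 (Lamtor2 with Rragc). In RPF the median was 0.113, from -0.48 (Rragc with Rragd) to 0.65 (Lamtor2 with Rragc). These are descriptions over libraries that share lysates, depth and scaling. The genes whose pattern was most like the mean of the members were Tmsb4x (r 0.967), Vti1b (0.958) and Rps23 (0.955) in RNA, and Gdpd1 (0.952), Dpysl5 (0.934) and Trappc2l (0.924) in RPF, over 12 libraries each. They were picked as the highest r over all genes tested, so the pick itself favours high values. Shared regulation was not tested.

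The rest of the pathway was read from 11 lists with 64 genes: GATOR1, the off switch of RagA and RagB, GATOR2, which restrains GATOR1, KICSTOR, which holds GATOR1 at the lysosome, the amino acid sensors, the folliculin complex, which acts on RagC and RagD, mTORC1, TSC and Rheb, the MiT/TFE factors, which drive lysosomal genes, BORC, which moves lysosomes and binds Ragulator, the MEK and ERK kinases that Lamtor3 scaffolds, and the V-ATPase, the proton pump that Ragulator contacts. Of these 63 had a row and were tested in both assays, and Kics2 was not matched. Tsc2 was the one called gene in the genotype comparisons, with 1 of 63 lower in RNA and in RPF and 0 of 63 higher. In TE 0 of 63 were called between genotypes, and 8 of 63 in vehicle and 1 of 63 in DHPG had an unadjusted p under 0.05 by edgeR, against 5.73% and 3.01% of all genes. With DHPG in WT, 1 of 63 was called higher in RPF, 0 of 63 in RNA and 0 of 63 in TE, and 7, 9 and 9 of 63 had an unadjusted p under 0.05 in RNA, RPF and TE by edgeR, against 6.45%, 6.71% and 9.07% of all genes. With DHPG in Tsc2+/- and for the interaction 0 of 63 were called in either direction, with 0 to 4 of 63 at an unadjusted p under 0.05.

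The gene called with DHPG was Atp6v1f, a subunit of the V-ATPase part that hydrolyses ATP. Its RPF level was 101, 118 and 110 CPM in WT vehicle and 140, 159 and 147 CPM in WT DHPG, with no overlap, as for 5.00% of all genes. The log2 fold change was 0.44 (SE 0.0727, adjusted p 0.00656, edgeR). In Tsc2+/- slices the RPF level was 128 CPM ± 7.44 (SD, n = 3) in vehicle and 138 ± 9.05 in DHPG. The call in WT was lost without replicate 2 (adjusted p 0.202) and without WT DHPG replicate 2 (0.32003). Averaged over genotypes, Atp6v1f was also called higher in RPF (0.27, adjusted p 0.0305, edgeR). The other 17 V-ATPase genes did not pass the threshold with DHPG in WT. Of all 18, with Atp6v1f, 5 had an unadjusted p under 0.05 by edgeR there, against 6.71% of all genes.

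By TE in WT vehicle, the members covered most of the pathway's span. Of 65 genes with a length, members and others together, Rragd ranked 3 and Lamtor1 ranked 5 from the lowest, and Rraga ranked 57. Akt1s1 (0.440), an inhibitor inside mTORC1, and Mapk3 (0.555), the ERK1 kinase, were the lowest, and Atp6v1g1 (9.93) the highest. The median TE was 5.24 for the 9 members, 3.62 for 18 V-ATPase genes, 1.41 for 5 mTORC1 genes and 1.35 for 3 GATOR1 genes. These are descriptions, with no test, and they carry the limit on shared sequence for Lamtor1, Lamtor3 and Lamtor5.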

How the data were processed

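RNA-seq and RPF libraries of mouse hippocampal slices were grouped by the labels' genotype and treatment, with 3 libraries in each of 8 groups and 0 columns left without a sample. The authors trimmed reads with Cutadapt, removed rRNA and tRNA reads with bowtie2, mapped the rest to mm10 with TopHat2, kept uniquely mapped reads, dropped duplicate RPF reads by molecular identifier, and counted with RSEM. The deposited tables hold RSEM expected counts for each gene, already rounded to whole numbers and not corrected for batch. RNA was counted by them over transcripts and RPFs over coding sequences less 30 nt at each end. RNA libraries held 14801700 to 24067800 counts and RPF libraries 5296010 to 13613700, and p-values measure the spread between these libraries.

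Genes were filtered with filterByExpr in edgeR 4.0.16 at a minimum count of 10, scaled by TMM and tested in R 4.3.3 with the two-sided quasi-likelihood test, modelling group plus replicate number, with Benjamini-Hochberg adjustment over all genes tested, called at an adjusted p under 0.1. For TE, all 24 libraries were fitted together and the RPF change was tested against the RNA change, in place of anota2seq. CPM are counts scaled by TMM and library size. RPKM divide these by the RefSeq transcript (RNA) or the counted coding sequence (RPF) on GRCm38.p6, the build of mm10, so TE here sets footprints of the coding sequence against RNA of the whole transcript. Log2 CPM used a prior count of 2. Genes named were the 9 members, Tsc2, genes of the pathway lists that were called, and the 3 genes per assay most like the members' mean. Pathway genes named for their TE, Prox1 and Hbb-bt were chosen after their values were seen.

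The members, the lists and the tests were chosen with earlier results of these data known. Other settings tried were leaving replicate number out of the model, RLE scaling, no filter, DESeq2 1.42.0 alone or after ComBat (sva 3.50.0), a threshold of 0.05, fitting the compared groups alone, RPF counts of replicates 2 and 3 halved, the length and GC trend removed, lysate as a block for TE, the shortest transcript, and each replicate number or library left out. Dividing by positions without a second perfect match was chosen after seeing the data. The procedure was tested on simulated counts. In simulated tables of 14361 RNA, 12802 RPF and 12699 TE genes, 100 genes were changed by 0.5 on the log2 scale between genotypes in vehicle. Of these 100, 71%, 65% and 43% were called. The same simulation also held genes changed by 1 (100 in RNA, 99 in RPF and 99 in TE), of which 94%, 84.8% and 79.8% were called. So many changed genes make the Benjamini-Hochberg cutoff easier to pass than in the real data. There, edgeR called 13 RNA, 3 RPF and 0 TE genes between genotypes in vehicle. The shares at 0.5 are thus likely too high for these data. The simulation held no effect of replicate number and drew RNA and RPF independently. Every pairwise change of a member was smaller than 0.5, so these shares do not give the power for the members.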

Additional observations from a re-analysis of the deposited data

How the results depend on the processing

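Over 488 alternative counts for the 21 comparisons, 0 of 9 members were called in every one. Some of these counts could not have come out otherwise. The stricter threshold was applied to the main fit, so it could only give 0 there. Members to which DESeq2 gave no adjusted p were counted as not called. These were all 9 in RNA for DHPG averaged over genotypes, and some members in other comparisons. The lowest adjusted p of a member in any alternative was 0.135 (Rragb, TE with DHPG in WT, without WT vehicle replicate 2). TE in WT vehicle moved by more than the spread between libraries for Lamtor2 with the shortest transcript (5.76). With all counts divided by positions without a second perfect match, it also moved for Lamtor1 (3.24), Lamtor3 (29.96) and Lamtor5 (7.07). The length and GC trend could be removed for 91.5% of the RNA genes and 95.04% of the RPF genes tested, and it took the members' median TE change with DHPG in WT from 0.15 to 0.032. That median was 0.24 without replicate 1.

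Replicate numbers were kept in the model because the study corrected its counts for batch. The labels do not say that these numbers are batches. Same-numbered libraries of different groups correlated in their deviations from the group means at 0.0228 to 0.143 in RNA and 0.0330 to 0.263 in RPF (18 pairs each), and differently numbered ones at -0.126 to 0.0240 and -0.194 to 0.0667. All same-number values were above 0, but not every one passed 0.1, the level set for taking the numbers as a pairing, so the libraries are treated as sharing only a number. Without the replicate block 0 of 9 members were called in each comparison.

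Of the RPF counts in replicates 2 and 3, 97.9% to 98.5% were even, against 48.2% to 49.0% in replicate 1, and 70 of 72 member values there were even. With those counts halved 0 of 9 were called. With 70 to 300 RPF counts per library, changes of Lamtor1, Lamtor4 and Rragd in RPF are the least precise, with intervals up to 0.61 on the log2 scale.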
